A study of Mus musculus with 8 samples.

Results

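Injury of the mouse kidney after injection of a miR-5100 mimic was compared with the same injury without any injection. The comparison rests on 4 of the 8 arrays in the series, chosen by their titles: mimic mice 6 and 7 against IRI mice 30 and 34. All 4 mice had the right kidney removed and the left renal vessels clamped for 45 min and then reopened, which starves the kidney of blood and then returns it (ischaemia-reperfusion injury, IRI). The mimic mice had also received, 2 days earlier, 5 nmol of the mimic in 200 µl by tail vein, carried on nanoparticles of polyethylenimine at an N/P ratio of 6 (nitrogen of the polymer to phosphate of the RNA). The IRI mice received no injection, so the mimic, the carrier and the injection differ together between the 2 groups. Injected mice given a control miRNA on the same carrier (1 and 5), then injured, and sham mice (1 and 4), which had an abdominal incision only, are set beside them where they bear on a value. Every left kidney was taken 24 h after surgery, and 30 mg of it gave total RNA. For strain, sex and age nothing is stated in the labels. The mice of a group carry separate numbers and were treated as separate animals.

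A microRNA guides a silencing complex to messenger RNAs, mainly through its seed, bases 2 to 8 from the 5′ end, and pairing of the seed with a transcript can lower the amount of that transcript. Injured tubules switch on damage genes and secreted proteins within a day of ischaemia, while loss of tubule cells, swelling of vessels and the entry of leukocytes change the make-up of the tissue. Fibroblasts and pericytes, the stromal cells around tubules and capillaries, make fibrillar collagen and carry platelet-derived growth factor receptors. Fibrinogen, a clotting protein of 3 chains made mainly by the liver, is also made by injured tubule cells.

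Both injected RNAs are 21 bases long, and they are shown because their seeds, in capitals, differ. The mimic equals the mature mmu-miR-5100 of RefSeq, which lies at chr11:60728698-60728718 on the plus strand (GRCm38.p6).
miR-5100 mimic: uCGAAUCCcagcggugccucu
control miRNA: gGUUCGUAcguacacuguuca

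The arrays were 1-colour, and each value is the log2 signal of a probe minus the 75th percentile of its array, so that a value of 0 is a bright spot's level and a difference of 1 is 2-fold. Before scaling, the 75th percentile was 308 and 242 signal units on the mimic arrays, below the other 6 arrays (408 to 599.8). Between 53.2% and 58.8% of spots were well above background, and 0 were saturated. The 2 mimic kidneys differed more from each other than other pairs did: the SD of their difference over genes was 0.67, against 0.39 in IRI, 0.52 in control-miRNA and 0.33 in sham kidneys. Mimic 7 stood farther from the IRI kidneys (r = 0.957 and 0.947 across genes) than mimic 6 did (r = 0.983 and 0.972). All arrays lay on 1 slide with 1 scan time, and injected mice filled its second row while the IRI mice lay in the first, so slide row and injection cannot be told apart.

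Of 21264 genes tested with limma on all 8 arrays, 3409 (16%) differed between mimic and IRI kidneys at an adjusted p (Benjamini-Hochberg) under 0.05, referred to below as called. There were 2234 higher (10.5%) and 1175 lower (5.53%) in the mimic kidneys, and 2198 of the called genes differed at least 2-fold. These calls lie just under the threshold: the smallest adjusted p of any gene was 0.0387 and the median of the called genes 0.0394. No gene was called by limma with any 1 array left out, except mimic 6, without which 7534 were, while all 3409 genes kept their direction in each of those fits. Leaving out a sham or control-miRNA array cannot change a difference between mimic and IRI kidneys. Leaving out a mimic or IRI array cannot turn a gene whose groups do not overlap, so the kept direction adds little. With the 4 mimic and IRI arrays alone, 0 genes were called, against 6439 at an unadjusted p under 0.05. With the brightness of each array as a covariate, 0 were called as well, 718 had an unadjusted p under 0.05, and 2703 of the 3409 kept their direction. The plot of calls by setting shows these counts. A call below therefore means a difference that passed this one fit, with 2 kidneys on each side. At an unadjusted p under 0.05 there were 39.8% of all genes. The groups did not overlap for 67.2%, so lack of overlap alone says little of a gene. Counts of called genes in the lists below stand against the 10.5% higher and 5.53% lower of all genes.

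**Figure D1:**
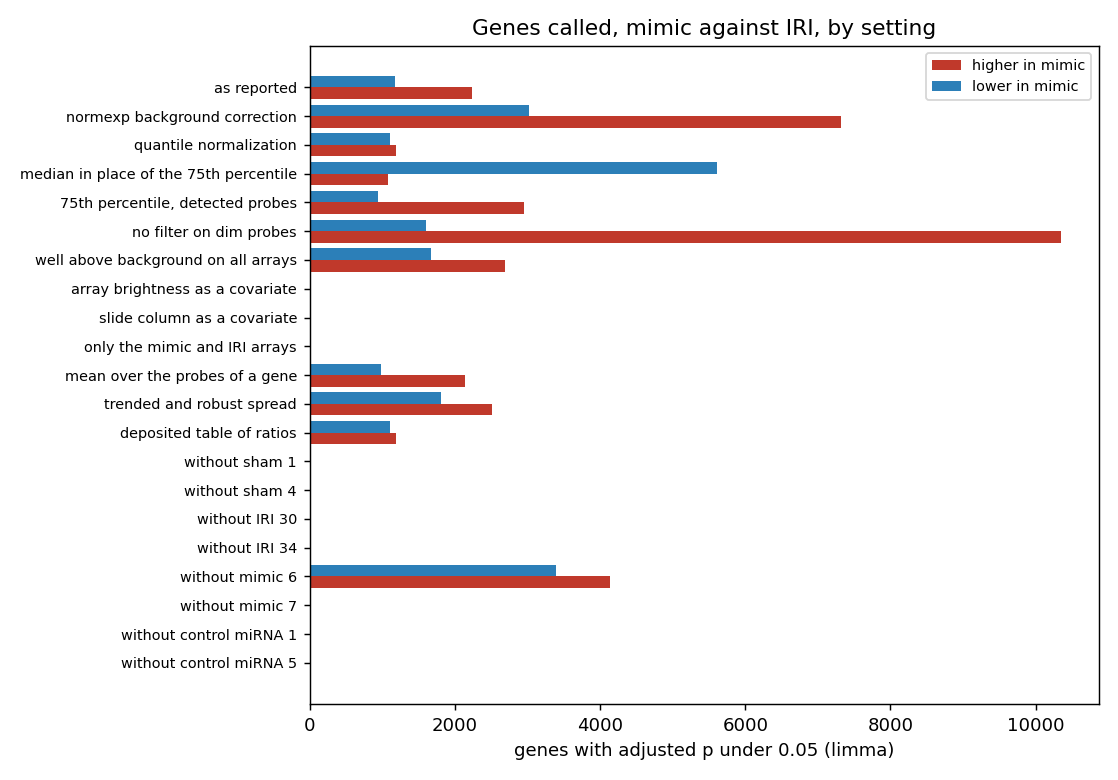
Number of genes called in mimic against IRI (x axis, adjusted p under 0.05, limma) under each setting (y axis), with genes higher in mimic in red and lower in blue. The reported setting gives 2234 and 1175 calls, and no gene is called with array brightness or slide column as a covariate, with the mimic and IRI arrays alone, or without any 1 array other than mimic 6.

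Control-miRNA against IRI kidneys, which share the IRI arrays with the comparison above, gave 0 calls and 870 genes (4.09%) at an unadjusted p under 0.05. Mimic against control-miRNA kidneys, with the same injury and carrier, also gave 0 calls, with 7188 genes (33.8%) at an unadjusted p under 0.05. Of 102 called genes described here, the mean of the control-miRNA kidneys lay over 50% of the way from the IRI to the mimic mean in 18, and for these the control-miRNA values are printed. For many of the others they are not. A difference between mimic and IRI kidneys that is also present in control-miRNA kidneys is not particular to the mimic in these data, and none of the differences from the control miRNA passed the test.

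Of 20 collagen genes measured, 10 were called higher in the mimic kidneys and 0 lower, against 10.5% and 5.53% of all genes. Their median log2 difference was 1.10, against 0.10 over all genes, and 16 of the 20 were positive. Col6a1, a chain of the microfibrillar collagen VI, was -0.10 and -0.41 in the IRI kidneys and 1.61 and 1.56 in the mimic kidneys, with 1.24 and 0.86 in the control-miRNA and 0.64 and 0.72 in the sham kidneys. Among injured kidneys those of the mimic group were highest and those of the IRI group lowest, with no overlap between groups. The difference of mimic from IRI was 1.84 ± 0.20 (moderated SE; adjusted p = 0.0387), or 3.58-fold. In bulk tissue, more cells of a type and more RNA per cell cannot be told apart.

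Col1a2, a chain of collagen I, the main fibre of scar, was 2.95 and 2.45 in IRI, 4.05 and 3.60 in control-miRNA and 4.54 and 4.80 in mimic kidneys, a difference of 1.97 ± 0.24 between mimic and IRI (adjusted p = 0.0387). Its partner chain Col1a1 was 1.94 and 1.02, 2.91 and 2.65 and 3.25 and 4.11 in the same order, 2.21 ± 0.38 apart (adjusted p = 0.0387). Among injured kidneys both chains were lowest in IRI and highest in mimic kidneys, with the control-miRNA kidneys in between. Col3a1, the sole chain of collagen III, differed by 2.00 ± 0.35 and Col5a1, of the collagen V that starts the fibre, by 1.76 ± 0.20 (adjusted p = 0.0387 for each). The control-miRNA kidneys, at 2.88 and 2.47 for Col3a1 and 0.38 and 0.08 for Col5a1, again lay between. Col5a3 was -1.48 and -1.43 in IRI and 0.19 and 0.19 in mimic kidneys, although its second probe differed by only 0.27. Col4a1 and Col4a2, the collagen IV chains of most basement membranes, were not called and differed by -0.58 ± 0.44 and -0.63 ± 0.48 (adjusted p = 0.356 and 0.358), and the 2 mimic kidneys lay apart in both, at 3.05 and 1.59 for Col4a1.

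**Figure D2:**
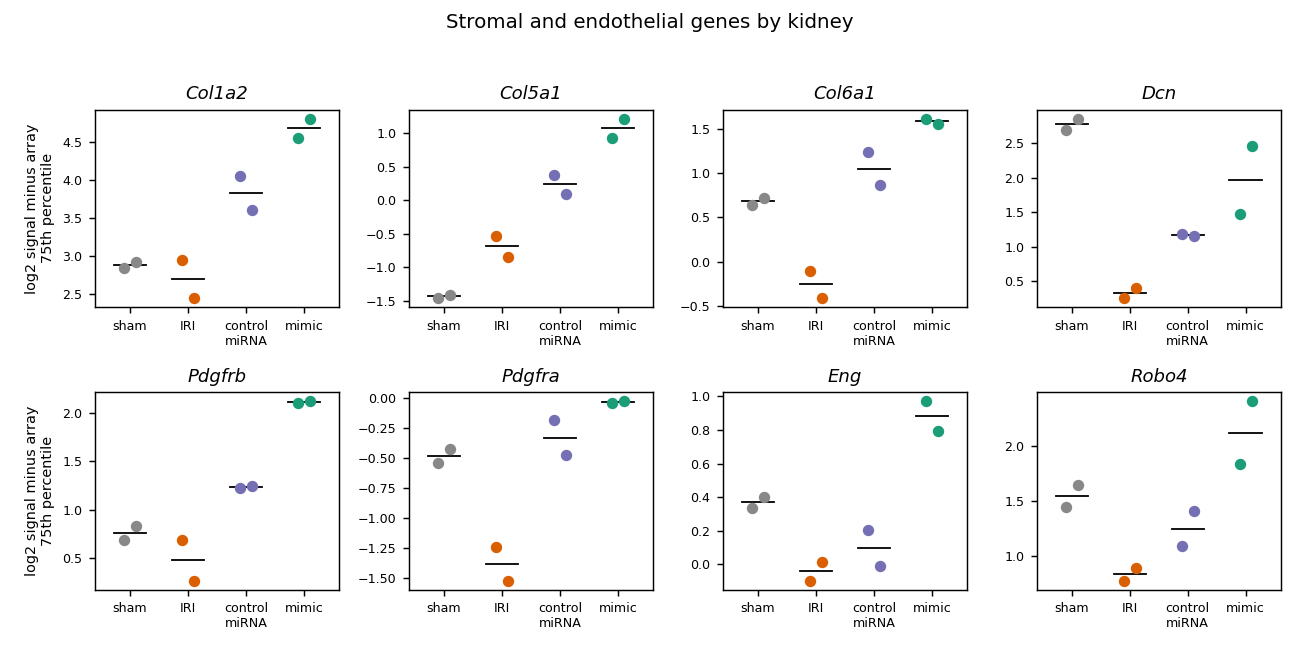
Array-scaled log2 signal (y axis) of 8 stromal and endothelial genes in each kidney (points) by group (x axis), with bars at group means of 2 kidneys. Mimic kidneys lie above both IRI kidneys in all 8 panels, and Dcn is highest in sham kidneys.

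Of 31 other matrix genes measured, 11 were higher and 0 lower, with a median of 0.99. Dcn, the collagen-binding proteoglycan decorin, was 0.26 and 0.40 in IRI, 1.18 and 1.15 in control-miRNA and 1.48 and 2.46 in mimic kidneys (1.64 ± 0.31, adjusted p = 0.0387), but 2.69 and 2.85 in sham kidneys. The mimic kidneys thus lay between IRI and sham values for this gene. Postn, the matricellular protein periostin, was -4.10 and -3.94 in IRI and -2.13 and -2.76 in mimic kidneys (1.58 ± 0.23, adjusted p = 0.0387). The control-miRNA kidneys, at -2.52 and -2.53, reached the same level as the mimic kidneys, and the difference between those 2 groups was 0.08 (adjusted p = 0.815). Bgn, the proteoglycan biglycan, and Fbln2, the elastic fibre protein fibulin 2, were higher by 1.15 ± 0.20 and 1.33 ± 0.22 (adjusted p = 0.0387 for each). For these 2 genes the control-miRNA kidneys were at the IRI level, -0.84 and -0.99 for Bgn against -0.97 and -1.23 in IRI. Mfap5, a microfibril protein, was not well above background on any IRI array and was at least 3.51-fold higher in mimic kidneys (adjusted p = 0.0387), with -2.94 and -4.00 in the control-miRNA and -2.91 and -3.50 in the mimic kidneys.

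Among 21 genes of pericytes, fibroblasts and vascular smooth muscle, 6 were higher and 1 lower, with a median of 0.79. Pdgfrb, the receptor that marks pericytes and fibroblasts, was 0.69 and 0.26 in IRI, 1.22 and 1.24 in control-miRNA and 2.11 and 2.12 in mimic kidneys. The difference between mimic and IRI was 1.64 ± 0.19 (adjusted p = 0.0387), 3.11-fold. Pdgfra, its sister receptor of fibroblasts, was higher by 1.35 ± 0.18 and Ebf1, a transcription factor of stromal cells, by 1.81 ± 0.24 (adjusted p = 0.0387 for each). Pdgfra in the mimic kidneys, -0.04 and -0.02, lay close to the control-miRNA values of -0.18 and -0.47, whereas Ebf1 did not (-1.37 and -1.13 against -2.35 and -2.89). Myh11, smooth muscle myosin, was higher by 1.14 ± 0.22 (adjusted p = 0.0387). Acta2, the actin of smooth muscle and myofibroblasts, was 3.31 and 3.08 in IRI and 5.23 and 3.96 in mimic kidneys and was not called (1.40 ± 0.53, adjusted p = 0.101). The gene that was lower, Mcam, codes for an adhesion molecule of vessels and fell from 5.89 and 5.96 to 4.78 and 3.97 (-1.55 ± 0.33, adjusted p = 0.0387), towards the sham values of 3.73 and 4.21. Of lists for tissue that could adhere to a kidney, adipose markers had 1 of 5 higher, Fabp4 (0.90 ± 0.22, adjusted p = 0.0445), and skeletal muscle markers 0 of 7 (1 at an unadjusted p under 0.05), and the part of such tissue in these values was not tested.

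All 22 endothelial genes measured were positive in mimic minus IRI, 10 were called higher and 0 lower, and the median was 0.83. Egfl7, a protein secreted by endothelium, was 3.49 and 3.55 in IRI and 4.50 and 4.52 in mimic kidneys (0.99 ± 0.21, adjusted p = 0.0387). Flt1, a receptor for vascular endothelial growth factor, was 1.94 and 1.87 in IRI and 2.85 and 3.32 in mimic kidneys (1.18 ± 0.22, adjusted p = 0.0387). Robo4, an endothelial guidance receptor, was higher by 1.29 ± 0.24, and Cdh5, the cadherin that joins endothelial cells, by 1.07 ± 0.25 (adjusted p = 0.0387 and 0.0410). Eng, a co-receptor of transforming growth factor beta on endothelium, was -0.10 and 0.02 in IRI and 0.97 and 0.79 in mimic kidneys (0.93 ± 0.17, adjusted p = 0.0387). These genes had been lower in IRI than in sham kidneys as a list (median -0.60), and the mimic values of Egfl7, Eng and Robo4 lay above those of both sham kidneys. Pecam1, the general endothelial marker, differed by 0.56 ± 0.18 and was not called (adjusted p = 0.0680). Unlike for the collagens, the control-miRNA kidneys did not differ from IRI by the list median (0.05), and mimic minus control miRNA gave 0.80. The median without mimic 7 was 0.60 and without mimic 6 it was 1.02.

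Podocyte genes, of the filtering cells of the glomerulus, had 2 of 14 higher and 0 lower, against 10.5% and 5.53% of all genes. So few calls say little of these genes as a list, and 1 of them, Col4a3, is also counted among the collagens. The list median of 0.81 fell to 0.41 without mimic 7 and rose to 1.30 without mimic 6. Tcf21, a podocyte and stromal transcription factor, was -3.16 and -3.25 in IRI and -2.23 and -1.53 in mimic kidneys (1.33 ± 0.36, adjusted p = 0.0496), and Col4a3, a chain of the glomerular basement membrane, was 0.88 ± 0.24 higher (adjusted p = 0.0491). Nphs1, nephrin of the slit diaphragm, was not called (1.20 ± 0.66, adjusted p = 0.213).

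The fibrinogen genes showed the largest falls of all called genes with a usual symbol, and all 3 were called lower. Fgb, the beta chain, was 5.39 and 5.31 in IRI and 2.40 and 1.68 in mimic kidneys, against -2.18 and -1.52 in sham kidneys. The mimic kidneys thus stayed above sham and below both IRI kidneys, and the difference of -3.31 ± 0.63 was 9.90-fold (adjusted p = 0.0387). Fga, the alpha chain, was 2.53 and 2.54 in IRI and -0.12 and -1.11 in mimic kidneys (-3.15 ± 0.62, adjusted p = 0.0387). Fgg, the gamma chain, was 7.07 and 7.18 in IRI and 4.62 and 3.36 in mimic kidneys (-3.13 ± 0.58, adjusted p = 0.0387). The 2 control-miRNA kidneys disagreed: Fgb was 2.83 in mouse 1 and 4.87 in mouse 5, near the mimic and near the IRI values respectively, and Fga and Fgg split in the same way. Mimic minus control miRNA was -1.81 for Fgb, -1.88 for Fga and -1.95 for Fgg (adjusted p = 0.103, 0.0935 and 0.0803). The probes lie on chromosome 3 (mm9), at chr3:82846334-82846393 for Fgb, chr3:82835678-82835737 for Fga and chr3:82818825-82818884 for Fgg. Of 9 hepatocyte markers measured, limma called 0 either way (0 at an unadjusted p under 0.05), and the log2 of their summed level was 5.04 and 5.53 in IRI and 5.67 and 6.59 in mimic kidneys. Albumin (Alb) was -1.60 and -2.01 in IRI and -2.54 and -1.68 in mimic kidneys by the probe used, and differed by -2.02 by its second probe.

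**Figure D3:**
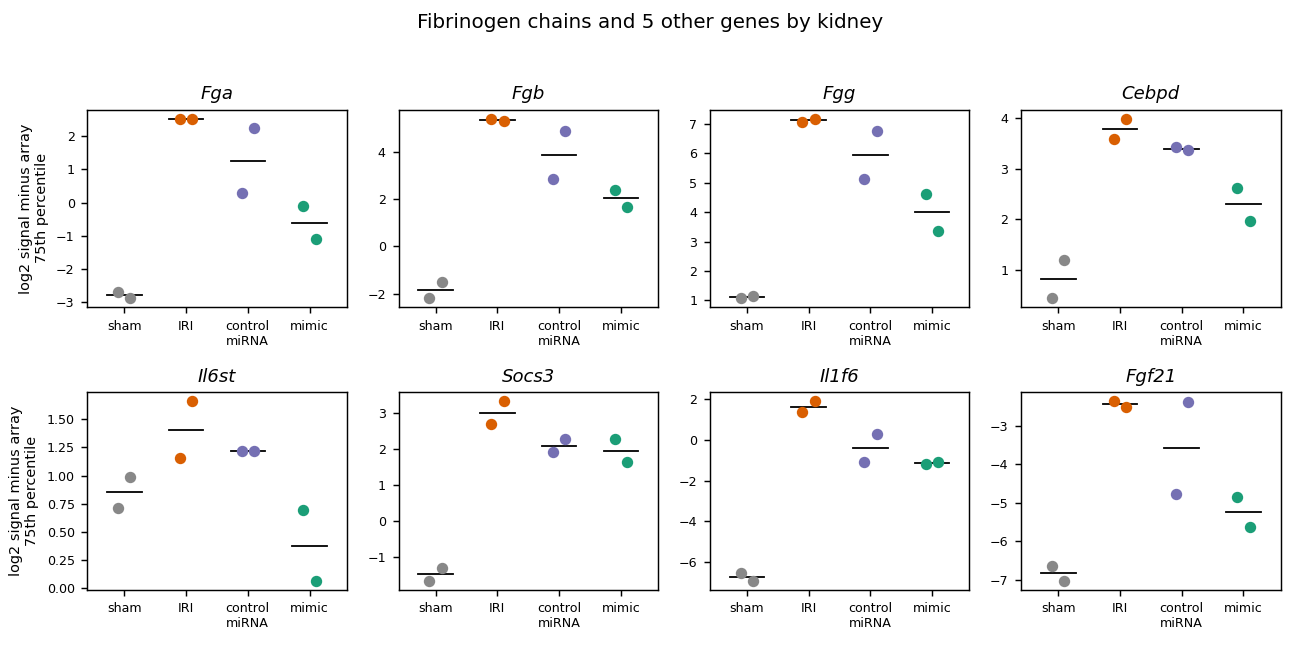
Array-scaled log2 signal (y axis) of the 3 fibrinogen chains and of 5 other genes, in each kidney (points) by group (x axis), with bars at group means of 2 kidneys. Both mimic kidneys lie below both IRI kidneys in all 8 panels, and the control-miRNA kidneys are split for Fga, Fgb, Fgg and Fgf21.

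Since the 3 genes moved together, the 250 bases before each start (RefSeq, GRCm38.p6, strand of the gene) are shown, with capitals at matches to TTCNNNGAA, the palindrome that STAT factors bind, and CTGGGAA, the interleukin 6 response element of acute phase genes. Both strands were searched, the motifs were chosen with the fibrinogen values known, and 7.02% and 9.1% of 32851 promoter windows of that length hold them. The CCAAT box (CCAAT) and the TATA box (TATAAA) were searched as well, had 0 matches in these 3 windows, and are held by 33.8% and 12.4% of all windows.
Fga, chr3:83025903-83026152: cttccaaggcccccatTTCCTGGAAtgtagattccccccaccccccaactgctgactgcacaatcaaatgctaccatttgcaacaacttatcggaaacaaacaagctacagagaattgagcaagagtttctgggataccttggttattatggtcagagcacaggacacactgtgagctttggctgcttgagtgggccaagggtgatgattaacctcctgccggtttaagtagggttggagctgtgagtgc
Fgb, chr3:83049864-83050113: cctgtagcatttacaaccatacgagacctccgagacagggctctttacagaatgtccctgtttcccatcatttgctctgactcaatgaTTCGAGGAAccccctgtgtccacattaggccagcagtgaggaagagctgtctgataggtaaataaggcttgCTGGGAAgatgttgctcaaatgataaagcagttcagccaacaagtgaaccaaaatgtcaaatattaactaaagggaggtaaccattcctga
Fgg, chr3:83007474-83007723: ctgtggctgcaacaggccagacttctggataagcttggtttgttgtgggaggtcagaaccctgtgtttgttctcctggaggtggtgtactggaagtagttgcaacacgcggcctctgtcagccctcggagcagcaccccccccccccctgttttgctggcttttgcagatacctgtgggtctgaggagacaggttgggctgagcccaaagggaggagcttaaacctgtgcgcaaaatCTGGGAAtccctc
The match in Fga starts 234 bases before the start of the gene, those in Fgb 162 and 91 bases, and the match in Fgg 13 bases. In Fgb the first of these is the STAT palindrome and the second the response element. Binding of a factor to these sequences was not measured.

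Of 18 other acute phase genes, 0 were higher and 1 was lower (median -0.04). That gene, Serpina3n, a protease inhibitor, was not well above background on the mimic arrays, and was at least 1.02-fold lower (adjusted p = 0.0387 for the full difference). With another background correction (normexp) the difference of Serpina3n changed sign. Lrg1, a secreted glycoprotein of the acute phase, was 4.64 and 5.10 in IRI and 2.76 and 2.44 in mimic kidneys without a call (-2.27 ± 0.70, adjusted p = 0.0637), and its control-miRNA kidneys, 2.42 and 4.88, were split like those of fibrinogen. Saa1, serum amyloid A, was not called either (-1.52 ± 0.72, adjusted p = 0.162). Among 12 genes of the interleukin 6 receptors and STAT3 signalling, which drive acute phase genes, 1 was higher and 2 were lower. Cebpd, an acute phase transcription factor, was 3.58 and 3.99 in IRI and 2.62 and 1.98 in mimic kidneys (-1.49 ± 0.32, adjusted p = 0.0387). Il6st, the shared receptor chain gp130, was lower by the probe used (-1.02 ± 0.27, adjusted p = 0.0488), but its second probe differed by 0.90 the other way. Il6ra, the receptor's ligand-binding chain, was higher (0.97 ± 0.25, adjusted p = 0.0463), but its control-miRNA values, 1.04 and 0.34, overlapped with those of the mimic kidneys, 0.87 and 0.86. Socs3, a feedback inhibitor that STAT3 switches on, was 2.69 and 3.33 and 2.27 and 1.63 and was not called (adjusted p = 0.0594).

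Genes of injured tubules had 1 of 30 higher and 1 lower, no larger a share than among all genes, and a median of -0.28 that became 0.14 without mimic 7, -0.43 without mimic 6 and 0.75 with array brightness as a covariate. Havcr1, the injury marker KIM-1, was 4.36 and 4.57 in IRI, 4.44 and 4.25 in control-miRNA and 3.82 and 2.97 in mimic kidneys, against -5.31 and -4.72 in sham kidneys. Both mimic kidneys were thus below the other injured kidneys and far above sham, and the difference of -1.07 ± 0.32 from IRI was not called (adjusted p = 0.0611). Lcn2, which codes for NGAL, was 7.45 and 7.28 in IRI and 7.49 and 5.85 in mimic kidneys (-0.69 ± 0.51, adjusted p = 0.340). Krt20, a keratin of damaged tubules, was 6.16 and 5.87 and 5.74 and 4.41 (-0.94 ± 0.40, adjusted p = 0.131). For both of these genes mimic 7 lay well below the IRI kidneys and mimic 6 near them. Timp1 and Spp1, secreted by injured tubules, were close to IRI (0.32 ± 0.21 and 0.11 ± 0.19, adjusted p = 0.297 and 0.692), with Spp1 at 9.62 and 9.34 and 9.62 and 9.54. Krt7, a keratin of duct epithelium, was the one lower (-0.65 ± 0.17, adjusted p = 0.0470), and Il24, a cytokine of the interleukin 10 family that was well above background on 1 of 2 IRI arrays, the one higher (0.97 ± 0.24, adjusted p = 0.0443).

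To ask how the response to injury as a whole compared, genes were taken that were called at least 2-fold in control-miRNA against sham kidneys. Of 1299 that rose there, 57 (4.39%) were higher and 176 (13.5%) lower in mimic than in IRI kidneys, with a median of -0.21. Of 1141 that fell there, 104 (9.11%) were higher and 64 (5.61%) lower, with a median of 0.21. Against the 10.5% and 5.53% of all genes, the genes that rose were lower more often, and the genes that fell had about the background share on both sides. The control-miRNA and sham arrays lie outside the comparison, but the fit took its spread from all arrays. A gene with a small spread passes both tests more easily, so these shares are not independent of how the genes were chosen. With the brightness of the array as a covariate the medians were 0.19 and -0.25, the opposite signs. The genes with the largest falls among named ones included several injury genes beside fibrinogen. Il1f6, a cytokine of the interleukin 1 family made by epithelium, was 1.40 and 1.91 in IRI, -1.07 and 0.32 in control-miRNA and -1.21 and -1.11 in mimic kidneys (-2.81 ± 0.44, adjusted p = 0.0387). The control-miRNA kidneys lay between the other injured groups, with mouse 1 next to the mimic values and mouse 5 farther from them. Fgf21, a stress hormone, and Tac1, the precursor of substance P, were not well above background on either mimic array, and were at least 3.08-fold and 1.93-fold lower (adjusted p = 0.0460 and 0.0387). Pcdh8, a protocadherin, was -0.74 and -0.84 in IRI, -2.67 and -1.94 in control-miRNA and -3.38 and -3.38 in mimic kidneys (-2.59 ± 0.33, adjusted p = 0.0387).

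**Figure D4:**
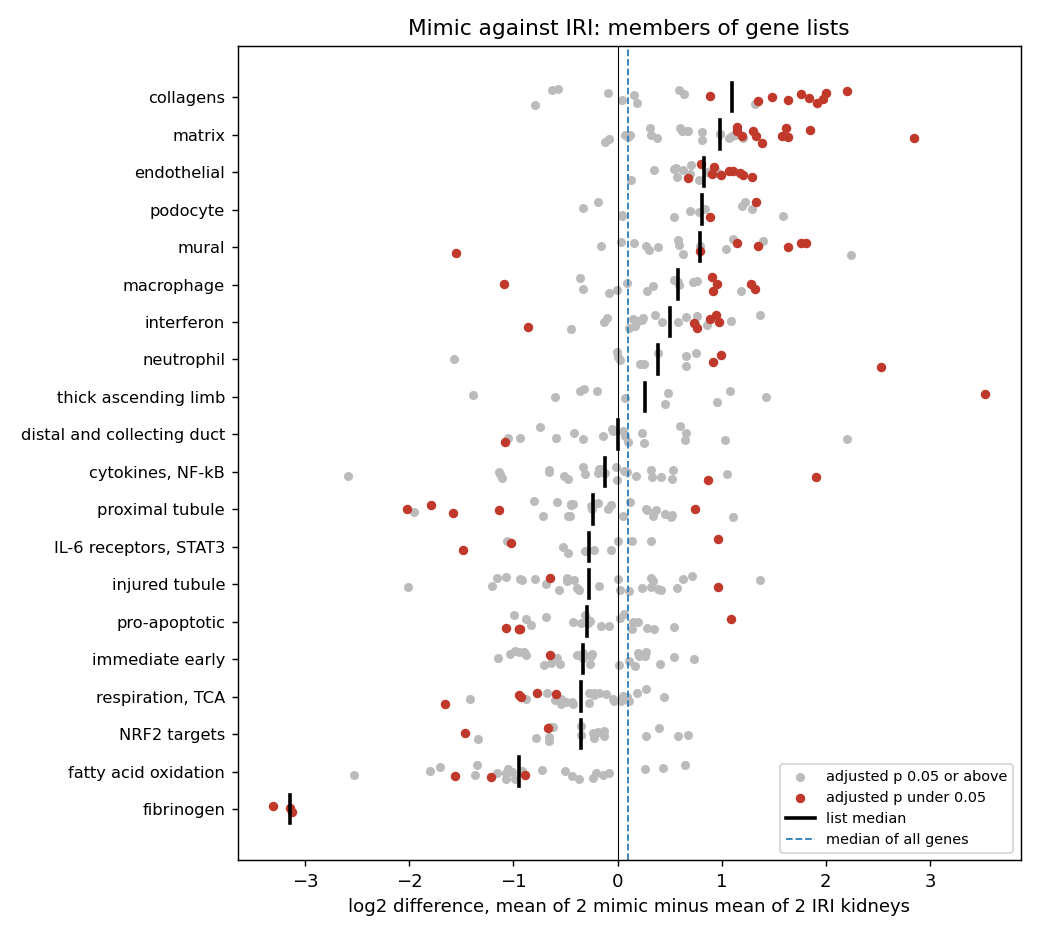
Log2 difference of mimic minus IRI kidneys (x axis, means of 2 kidneys each) for each measured gene (points) of 20 gene lists (y axis), red where called, with a bar at the list median and a dashed line at the median of all genes, 0.10. Collagens, matrix and endothelial genes lie to the right with 0 called lower, and the 3 fibrinogen chains lie apart on the left.

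Proximal tubule genes had 1 of 30 higher and 4 lower, with a median of -0.23 that was -0.04 without mimic 6 and -0.68 with the array median in place of the 75th percentile. Fbp1, an enzyme of glucose synthesis, was 6.45 and 6.69 in IRI and 5.40 and 3.69 in mimic kidneys (-2.03 ± 0.49, adjusted p = 0.0433), with mimic 7 the lower. Cyp2e1, a cytochrome of drug metabolism, was 3.85 and 4.33 in IRI, 4.27 and 4.73 in control-miRNA and 2.23 and 2.37 in mimic kidneys (-1.79 ± 0.24, adjusted p = 0.0387), and 6.96 and 6.81 in sham kidneys. The level was thus lower in injured than in sham kidneys and lowest in the 2 mimic kidneys. Cyp4b1, another cytochrome, was lower by -1.58 ± 0.39 (adjusted p = 0.0450), and the probes of Aco1, cytosolic aconitase, disagreed in sign (-1.14 and 1.22). Kap, an abundant androgen-regulated proximal tubule protein, was the one higher (0.74 ± 0.20, adjusted p = 0.0492), but was lower under quantile normalization (-0.10). The phosphate transporter Slc34a1 and the endocytic receptor Lrp2 differed by 0.28 ± 0.30 and -0.26 ± 0.19 (adjusted p = 0.511 and 0.353), with other probes of opposite sign. Slc17a1, an anion transporter of the brush border outside these lists, was 0.54 and 1.34 in IRI and -0.92 and -2.04 in mimic kidneys (-2.42 ± 0.40, adjusted p = 0.0387).

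Farther along the nephron, thick ascending limb genes had 1 of 12 higher, Tmem207, a membrane protein of that segment, which was at least 4.01-fold higher than on the IRI arrays, where it was not well above background (adjusted p = 0.0387). Its sham values, -1.46 and -1.98, lay above those of both mimic kidneys, -3.75 and -2.28. Umod, uromodulin of the same segment, was 7.25 and 7.99 in IRI and 7.32 and 7.27 in mimic kidneys and did not differ beyond the spread (adjusted p = 0.372). Distal and collecting duct genes had 0 of 20 higher and 1 lower, Scnn1g, a subunit of the epithelial sodium channel (-1.08 ± 0.19, adjusted p = 0.0387).

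Genes of fatty acid oxidation, the main fuel of proximal tubules, had 3 of 26 called lower and 0 higher, and only 3 of 26 were positive, with a median of -0.95 against 0.10 over all genes. The control-miRNA kidneys did not share this (list median of -0.03 against IRI). Etfdh, which passes electrons from fatty acid oxidation to the respiratory chain, was 4.01 and 4.20 in IRI and 3.19 and 1.90 in mimic kidneys (-1.56 ± 0.41, adjusted p = 0.0475). Fabp1, a fatty acid carrier, was 0.75 and 0.67 and -0.47 and -0.55 (-1.22 ± 0.23, adjusted p = 0.0387). Its sham values were -2.33 and -1.71, so for this gene the mimic kidneys lay between sham and IRI kidneys. Hadhb, a subunit of the mitochondrial trifunctional protein, was lower by the probe used (-0.89 ± 0.21), while another of its probes differed by 0.95, and a second probe of Etfdh by 0.41. Cyp4a10, which oxidises fatty acids at their end, ranged from 2.39 and -0.03 within the mimic group and was not called (-2.53 ± 0.74, adjusted p = 0.0575). The list median was -0.41 without mimic 7, -1.46 without mimic 6 and -0.27 with array brightness as a covariate. Respiratory chain and citrate cycle genes had 5 of 30 lower and 0 higher (median -0.35). They were Suclg1 (-1.65 ± 0.37) and Sucla2 (-0.94 ± 0.18), subunits of succinyl-CoA ligase, Sdha of complex II (-0.93 ± 0.23), Uqcrfs1 of complex III (-0.78 ± 0.16) and the isocitrate dehydrogenase Idh2 (-0.59 ± 0.16), with adjusted p from 0.0387 to 0.0491. Another probe of Sdha differed by 0.62, and the second probe of Suclg1 by only -0.15.

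Macrophage genes had 5 of 19 higher and 1 lower, with a median of 0.58. The log2 of their summed level, to which bright genes add most, overlapped between the groups. It was 7.615 and 7.758 in IRI and 7.626 and 7.368 in mimic kidneys. Csf1r, the receptor for the macrophage growth factor, was 2.01 and 1.89 in IRI and 2.76 and 2.97 in mimic kidneys, below the sham values of 3.84 and 3.47 (0.92 ± 0.20, adjusted p = 0.0393). A second probe of Csf1r differed by only 0.21. Its ligand Csf1, counted with the cytokine genes below and not with the macrophage genes, was 0.87 and 1.25 in IRI and 2.02 and 1.84 in mimic kidneys (0.87 ± 0.19, adjusted p = 0.0387). C1qc, a complement chain made by macrophages, Ms4a7, a macrophage membrane protein, and Mrc1, the mannose receptor, were higher by 0.95 ± 0.21, 1.32 ± 0.27 and 1.28 ± 0.35 (adjusted p = 0.0389, 0.0387 and 0.0495). C1qc was 0.50 and 0.81 in control-miRNA kidneys, between 0.12 and 0.02 in IRI and 1.04 and 1.00 in mimic kidneys. Its sham values, 0.904 and 0.455, also lay above both IRI kidneys. The partner chains C1qa and C1qb, counted here and among the acute phase genes, were not called. Cd14, the co-receptor for bacterial lipopolysaccharide that injured tubules also express, was the one lower, from 3.11 and 3.26 in IRI to 2.14 and 2.04 in mimic kidneys (-1.09 ± 0.25, adjusted p = 0.0394). Here the control-miRNA kidneys, 1.99 and 2.66, overlapped with the mimic kidneys.

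Neutrophil genes had 3 of 13 higher and 0 lower, with a median of 0.39 that was -0.03 without mimic 6 and -0.06 with the median scaling. Itgam, the integrin CD11b, was 2.77 and 2.32 in IRI and 4.38 and 5.77 in mimic kidneys (2.53 ± 0.48, adjusted p = 0.0387), yet sham kidneys, 4.87 and 4.31, were also above IRI. The neutrophil granule gene S100a8 did not rise beside it: its values were -0.03 and 0.42 for IRI, 0.72 and -0.33 for mimic and -3.52 and -3.19 for sham kidneys. Csf3r and Trem1, receptors of neutrophils, were higher by 0.99 ± 0.25 and 0.92 ± 0.21 (adjusted p = 0.0448 and 0.0394). For Itgam and Csf3r, but not Trem1, the dimmest array before scaling, mimic 7, was the highest of all kidneys. The brightest array, IRI 34, was the lowest for both. With array brightness as a covariate Csf3r turned negative, and the part of brightness in these values was not tested. Lymphocyte genes had 1 of 13 higher, Il7r, the interleukin 7 receptor, which was well above background on 1 of 2 IRI arrays (1.29 ± 0.23, adjusted p = 0.0387), with -4.95 and -4.79 in IRI, -3.76 and -4.37 in control-miRNA and -3.52 and -3.65 in mimic kidneys. The median of the lymphocyte genes was 0.33, but -0.11 with quantile normalization and -0.12 with the median scaling. Of 27 cytokine and NF-kB genes, 2 were higher, Csf1 and the chemokine Ccl4. Ccl4 was -4.01 and -3.26 in IRI, -4.79 and -4.07 in control-miRNA and -2.10 and -1.37 in mimic kidneys (1.91 ± 0.41, adjusted p = 0.0387). Its sham values, -1.89 and -2.54, overlapped with those of the mimic kidneys and lay above both IRI kidneys. The inflammatory cytokines Tnf and Il6 and the monocyte attractant Ccl2 differed by 0.42 ± 0.23, 0.52 ± 0.73 and 1.05 ± 0.77 (adjusted p = 0.215, 0.619 and 0.338), all without a call, and Il6 was well above background on 1 of 2 mimic arrays.

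Interferon-stimulated genes, which foreign RNA can switch on, had 5 of 24 higher and 1 lower, with a median of 0.50. With quantile normalization 2 were higher, and with the median scaling 0, with a median of 0.06. Isg15, an antiviral ubiquitin-like protein, was 1.01 and 1.42 in IRI, 0.65 and 0.91 in control-miRNA and 2.28 and 2.10 in mimic kidneys (0.97 ± 0.24, adjusted p = 0.0453), and 0.84 and 0.32 in sham kidneys. Irf7, a transcription factor of the interferon response, was 2.24 and 2.22 in IRI, 2.97 and 3.30 in control-miRNA and 3.02 and 3.34 in mimic kidneys (0.95 ± 0.20, adjusted p = 0.0387). Mimic and control-miRNA kidneys overlapped for Irf7 and did not for Isg15, although that difference of 1.41 was not called (adjusted p = 0.0662). Mx2, an antiviral GTPase, was higher by 0.74 ± 0.19, and Ifih1, the sensor MDA5 of long double-stranded RNA, lower by -0.86 ± 0.22 (adjusted p = 0.0462 and 0.0474).

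Genes that promote apoptosis had 1 of 26 higher and 4 lower, with a median of -0.29 that was -0.17 without mimic 7 and 0.065 with array brightness as a covariate. Casp8, the caspase of death receptors, was 2.03 and 1.81 in IRI, 1.87 and 1.81 in control-miRNA and 1.21 and 0.75 in mimic kidneys, and 0.20 and 0.26 in sham kidneys (-0.93 ± 0.20, adjusted p = 0.0387). Tnfrsf1a, the receptor for tumour necrosis factor, was 4.23 and 4.50 in IRI and 3.45 and 3.39 in mimic kidneys (-0.95 ± 0.18, adjusted p = 0.0387). In both genes the mimic kidneys lay between the IRI and the sham kidneys, whose Tnfrsf1a was 2.47 and 2.69. Pmaip1, the BH3-only protein NOXA, was lower by -0.95 ± 0.22, and Casp6, an executioner caspase, by -1.07 ± 0.20 (adjusted p = 0.0414 and 0.0387). Pmaip1 was 1.77 and 1.81 in IRI, 1.52 and 1.07 in control-miRNA and 1.06 and 0.63 in mimic kidneys. Apaf1, the scaffold of the apoptosome, was dim: it was well above background on 1 IRI and 0 mimic arrays (-5.01 and -4.32 and -4.12 and -5.73), which leaves its difference unmeasured. Casp9, the caspase that Apaf1 activates, differed by -0.16 ± 0.16 (adjusted p = 0.494), with another probe at 0.86. Anti-apoptotic genes had 0 of 10 called by limma (2 at an unadjusted p under 0.05), and Bcl2 differed by -0.13 ± 0.21 (adjusted p = 0.678).

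Of 22 heat shock and unfolded protein genes 5 were lower and 0 higher, although the median was -0.03 and 11 of the 22 were positive. With quantile normalization or the deposited ratios 1 of the 22 was lower. Xbp1, a transcription factor of the unfolded protein response, was 5.91 and 6.29 in IRI and 5.01 and 4.86 in mimic kidneys (-1.17 ± 0.27, adjusted p = 0.0403), and Herpud1, a degradation factor of the endoplasmic reticulum, and the mitochondrial chaperone Hspd1 were lower too (-0.89 ± 0.20 and -1.05 ± 0.26, adjusted p = 0.0393 and 0.0451). The others were Hspe1, which works with Hspd1 (-0.65 ± 0.17, adjusted p = 0.0491), and Dnajb9, a co-chaperone of the endoplasmic reticulum (-1.27 ± 0.28, adjusted p = 0.0389), of which a second probe differed by 0.22. Of 19 genes of the NRF2 antioxidant programme 2 were lower, Nfe2l2, which codes for NRF2 (3.24 and 3.50 in IRI and 2.42 and 1.37 in mimic kidneys, -1.47 ± 0.37, adjusted p = 0.0461), and Txnrd1, thioredoxin reductase (-0.67 ± 0.17, adjusted p = 0.0470), with 0 lower under quantile normalization or with the deposited ratios. Hmox1, haem oxygenase of the same programme, was not called (-0.65 ± 0.34, adjusted p = 0.194). Immediate early genes, the first to respond to a stimulus, had 1 of 27 lower, Zfp36, which destabilises cytokine mRNA (-0.65 ± 0.16, adjusted p = 0.0424), and Fos was not called (-0.71 ± 0.33, adjusted p = 0.153). Of 24 genes of transforming and platelet-derived growth factor signalling, which drive fibroblasts, 1 was higher, Ltbp1, a binding protein of latent TGF-beta (1.20 ± 0.26), and 2 were lower, the ligands Bmp6 (-1.82 ± 0.46) and Pdgfc (-1.15 ± 0.25), with adjusted p of 0.0387, 0.0462 and 0.0393. Pdgfc is a ligand of the receptor Pdgfra, which was higher. The ubiquitous actin Actb was higher too, 8.46 and 8.37 in IRI and 9.27 and 9.19 in mimic kidneys (0.82 ± 0.17, adjusted p = 0.0387).

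Of the 15 largest rises with a usual symbol, 7 were not well above background on either IRI array, among them Tmem207, Mfap5 and Frem1, an extracellular matrix protein of at least 5.55-fold. Frem1 was -4.65 and -5.61 in IRI, -2.75 and -3.37 in control-miRNA and -3.17 and -1.74 in mimic kidneys, and the last 2 groups overlapped. Among bright ones were Rnu1b1 and Rnu1b6, the U1 small nuclear RNA of the spliceosome, which carries no poly(A) tail. Their probes overlap, so they count as 1 measurement. The sham kidneys had 6.92 and 6.91 for Rnu1b1, with 5.76 and 4.89 in IRI, 5.69 and 6.16 in control-miRNA and 7.63 and 8.65 in mimic kidneys (2.82 ± 0.41, adjusted p = 0.0387). Marchf1, a ubiquitin ligase of antigen presentation, showed the same order, with 3.73 and 3.21 for sham, 1.54 and 1.09 for IRI and 3.33 and 4.79 in mimic kidneys (2.74 ± 0.49, adjusted p = 0.0387). So did Trpc6, a cation channel of podocytes and smooth muscle (2.90 ± 0.58), and Pign and Lrig2, whose other probes differed by 0.21 and -0.17. In each of these genes mimic 7, the dimmest array before scaling, was the highest of all kidneys, and IRI 34, the brightest array, the lowest. With array brightness as a covariate Trpc6, Pign and Lrig2 turned negative (-0.24, -0.15 and -0.26), and the part of brightness in these values was not tested further.

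The difference between mimic and IRI kidneys depended on the level of a gene. When genes were split by mean signal into 4 equal groups, the median difference in the dimmest was 0.48, with 14.7% higher and 2.45% lower. It was 0.24 in the next group, -0.05 in the one after and -0.11 in the brightest, where 5.3% were higher and 7.2% lower. The mimic arrays were also the dimmest, and array brightness cannot be told apart from the mimic group in full, since both mimic arrays lay below all others.

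**Figure D5:**
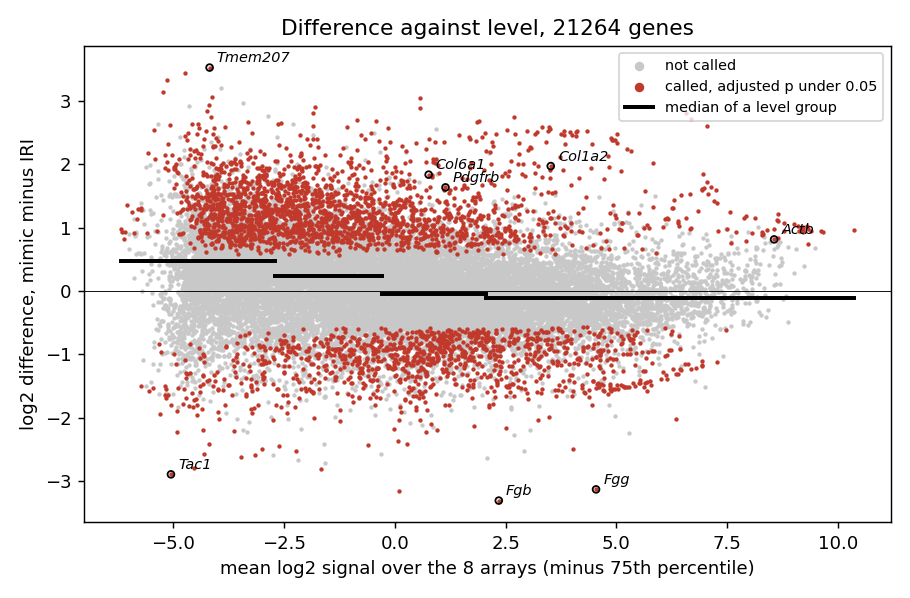
Log2 difference of mimic minus IRI kidneys (y axis) against mean array-scaled log2 signal over the 8 arrays (x axis) for the 21264 genes (points), red where called, with bars at the median of 4 equal groups by level. The medians fall from 0.48 in the dimmest to -0.11 in the brightest group, and the fibrinogen chains Fgb and Fgg lie below -3.

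The seed of the mimic would pair with GGATTCG in a transcript. Whole transcripts were not analysed here, so the letters were looked for in the probes that stand for the genes, which read in the sense of the transcript for 99.5% of 12815 genes with a known strand. The site was in the probe of 18 of 21264 genes (0.0847%), of which 2 were higher and 1 lower in mimic than in IRI kidneys. These counts are near the shares of all genes, 10.5% higher and 5.53% lower. The median of the 18 genes was -0.16 (-0.04 against control-miRNA kidneys), and 10 of the 18 were negative. For bases 2 to 7 alone, GATTCG, the probe of 71 genes matched, with 8 higher, 5 lower and a median of -0.25 (-0.07 against control-miRNA kidneys). The match of the control miRNA, TACGAAC, was in 7 genes, with 2 higher, 1 lower and a median of 0.90. Probes cover a small part of each transcript, so a gene without a match here may hold one elsewhere. The 3 called genes are shown with the site in capitals and neighbouring bases as the probe reads.
RIKEN clone (higher): gaacctgcacaGGATTCGtgaaaatgcaa
H4c12 (higher): gcaccctctacGGATTCGgaggctaa
Rtl6 (lower): ttgcttcctcgGGATTCGttctctaaggt
The lower gene, Rtl6, derived from a retrotransposon, differed by -0.82 ± 0.18 (adjusted p = 0.0387) from IRI and by -0.46 from control-miRNA kidneys. H4c12, a histone H4 gene, differed by 0.79 ± 0.20 and the RIKEN clone without a usual symbol by 1.25 ± 0.32 (adjusted p = 0.0470 and 0.0460).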

How the data were processed

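Total RNA from 30 mg of left kidney of 8 mice, 2 per group, was labelled with Cy3 from 50 ng and hybridised to 1-colour Agilent arrays. The scanner files hold the processed signal of each spot, an intensity with background removed and no scaling across arrays, per the file headers. It was made with version 12.0.3.1 of Agilent Feature Extraction, which the submitters' processing notes name. A deposited table gives each probe as a ratio to its median over the arrays, as its values show, with no record here of how arrays were scaled before. It served as an alternative.

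Control spots and outlier spots (79 to 127 per array) were left out. Signals were put on a log2 scale relative to the 75th percentile of the array. Probes were kept where some group had both arrays well above background (32218), and the probe with the highest mean stood for its gene (21264 genes). Names came from RefSeq accessions for 33762 of 56605 probes, from current symbols for 9871 and older ones for 310, and 12662 kept the file's name. Coordinates of probes are mm9. limma 3.58.1 (R 4.3.3, lmFit and eBayes) fitted 1 mean per group on 8 arrays, with a Benjamini-Hochberg threshold of 0.05 and 6.84 degrees of freedom after moderation. With so few arrays, their number limits the precision. A gene that no array of a group measured above background has a bound, "at least N-fold", against the lowest signal well above background. The adjusted p printed beside such a bound tests the full difference, which includes values below that lowest signal, and not the bound itself.

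The comparison, gene lists and genes were chosen with earlier results of these data known. The rule named 192 genes: the 15 called genes that rose most and the 15 that fell most without overlap, up to 4 of each list by smallest p, and set genes. The text describes 129 genes picked from these with their values seen, among them 15 outside the rule (Acta2, Alb, Cdh5, Col1a1, Col3a1, Col4a1, Col4a2, Mcam, Mrc1, Nphs1, S100a8, Saa1, Kap, Idh2 and Hspe1), as well as the 3 genes with a seed site. Values of some measured genes are not reported here. The motif and seed searches were added after the arrays were analysed.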

Additional observations from a re-analysis of the deposited data

How the results depend on the processing

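Against 2234 genes higher and 1175 lower, normexp background correction gave 7318 and 3025, quantile normalization 1185 and 1106, the median in place of the 75th percentile 1076 and 5607, no filter on dim probes 10348 and 1599, trended and robust spread 2517 and 1811, and the deposited ratios 1185 and 1110. Higher calls were 65.5% of all calls as reported, 51.7% with quantile normalization, 16.1% with the median, 75.9% with the percentile taken over detected probes, 86.6% without the filter and 51.6% with the deposited ratios. These scalings moved the median of all genes from 0.10 to -0.0046, -0.35, 0.18, 0.50 and -0.0052. Array brightness as a covariate, slide column as a covariate and the 4 compared arrays alone each gave 0 higher and 0 lower by limma, with 718, 8011 and 6439 genes at an unadjusted p under 0.05. The slide column differs within each pair of arrays and costs 1 degree of freedom. Leaving out 1 array gave 0 to 4139 higher and 0 to 3395 lower. A group left with 1 array is assumed to vary like the others, and leaving out either sham array gives the same fit, as does either control-miRNA array. Mimic against control miRNA had 0 calls as reported, 5833 with normexp, 1495 with probes above background on all arrays, 1 with slide column, 1955 with trended and robust spread and 0 to 6318 without 1 array (6318 without mimic 6), and control miRNA against IRI had 1 with probes above background on all arrays. The median of injury genes that rose was -0.65 with the median scaling, 0.19 with brightness and -0.36 to -0.08 without 1 array, and of those that fell 0.43 with normexp, -0.24 with the median scaling, -0.25 with brightness and -0.025 to 0.40 without 1 array. The cause of these shifts was not tested.

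Of the genes named, the following changed sign of the log2 difference between mimic and IRI. When array brightness was a covariate, these were Col4a1 1.03, Col4a2 1.12, Il6st 0.18, Socs3 0.071, Havcr1 0.36, Krt20 0.23, Lcn2 0.88, Spp1 -0.052, Umod 0.60, Csf3r -0.14, Tnf -0.58, Ifih1 0.036, Apaf1 2.16, Etfdh 0.20, Suclg1 0.25, Dnajb9 0.087, Hspd1 0.029, Nfe2l2 0.33, Hmox1 0.015, Egln3 0.12, Trpc6 -0.24, Pign -0.15, Lrig2 -0.26, Rpl7 0.19. With normexp they were Serpina3n 0.18, Capn6 0.091, Spp1 -0.023, Apaf1 0.63, Alb 0.017, S100a8 -0.045, with the median scaling Timp1 -0.13, Spp1 -0.34, Slc34a1 -0.17, Tnf -0.026, S100a8 -0.44, with quantile normalization Spp1 -0.62, Kap -0.10 and with the deposited ratios Spp1 -0.63, Kap -0.12. With the mean over the probes of a gene they were Aco1 0.042, Slc34a1 -0.27, Lrp2 0.12, Casp9 0.35, Bcl2 0.052, Hadhb 0.014. Without 1 array the values ran for S100a8 from -0.52 to 0.53, for Spp1 from -0.033 to 0.25, for Umod from -0.70 to 0.043, for Apaf1 from -1.07 to 0.54, for Il6 from -0.52 to 1.56, for Bcl2 from -0.36 to 0.10, for Alb from -0.73 to 0.13, for Col4a1 from -1.31 to 0.15, for Col4a2 from -1.47 to 0.21, for Lcn2 from -1.51 to 0.13, for Slc34a1 from -0.11 to 0.67. The medians of the collagen, endothelial and fibrinogen lists ran from 0.66 to 1.30, 0.38 to 1.02 and -3.69 to -2.65 over all settings and all arrays left out. Of 38 lists the median kept its sign throughout in 13 and changed it in 25. Among those that changed it, the medians ran from -0.72 to 0.75 for injured tubules, -0.06 to 0.89 for neutrophils, -0.12 to 0.63 for lymphocytes, -0.78 to 0.61 for immediate early genes, -0.80 to 0.13 for NRF2, -0.47 to 0.08 for heat shock and -0.74 to 0.065 for pro-apoptotic genes. No paired analysis was possible because mimic and IRI mice share no replicate number.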

Other observations

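Several gene groups not described above held few calls. Hypoxia and glycolysis genes had 0 of 23 higher and 2 lower. These were Egln3, an oxygen-sensing hydroxylase that was -0.49 and -0.26 in IRI and -1.47 and -2.17 in mimic kidneys (-1.45 ± 0.33, adjusted p = 0.0395), and Bnip3, a protein of mitochondrial turnover (-0.84 ± 0.22, adjusted p = 0.0475). Cell cycle genes had 1 of 23 lower, Ccnd1, cyclin D1 (-0.74 ± 0.19), genes of the p53 response 1 of 18, Pmaip1, and ribosomal protein genes 1 of 24, Rpl7 (-1.14 ± 0.29). Another probe of Rpl7 differed by 0.80, the other way. Genes of lytic cell death had 1 of 16 higher, Zbp1, a sensor of nucleic acids (0.67 ± 0.18), and 1 lower, Gsdme, a pore-forming gasdermin (-0.81 ± 0.16). Of 12 genes often used as references 1 was higher, Actb, and 1 lower, Sdha.

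The proteins that process and use microRNAs were measured by 13 genes, of which 1 was higher and 1 lower. Tnrc6a, the scaffold of the silencing complex, was 1.55 and 1.35 in IRI, 1.65 and 1.64 in control-miRNA and 2.01 and 2.37 in mimic kidneys (0.74 ± 0.18, adjusted p = 0.0446). Prkra, a partner of Dicer, was 0.36 and 0.45 in IRI, 0.14 and 0.14 in control-miRNA and -0.20 and -1.02 in mimic kidneys (-1.01 ± 0.27, adjusted p = 0.0499). Markers of other tissues held few calls. Hsd3b1, a steroid enzyme on the adrenal list, was not well above background on the IRI arrays and on 1 of 2 mimic arrays, with sham values of -1.36 and -1.66 above all others. Of 5 urothelial markers limma called 0 (1 at an unadjusted p under 0.05).

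Dbp, a clock-controlled transcription factor whose level follows the time of day, stood at 5.30 and 6.14 in sham kidneys, at 4.49 and 4.83 in IRI, at 2.96 and 4.21 in control-miRNA and 1.27 and 3.05 in mimic kidneys (-2.50 ± 0.65, adjusted p = 0.0478). The labels do not state the hour at which a kidney was taken. Capn6, a calpain-like protein, had values of -3.65 and -3.34 in sham kidneys, of -3.61 and -3.59 in IRI and of -3.45 and -3.87 in control-miRNA kidneys. It was not well above background on either mimic array, at least 1.38-fold lower than in IRI (adjusted p = 0.0387 for the full difference). With normexp background correction the difference of Capn6 changed sign. Of the 15 largest rises and the 15 largest falls with a usual symbol, mimic 7 lay farther from the IRI kidneys than mimic 6 in 12 and 11.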
